A study of Saccharomyces cerevisiae with 12 samples.

Results

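Domain VI is the 3′-terminal structural domain of the 25S rRNA, the large RNA of the yeast 60S ribosomal subunit. It was taken as nucleotides 3001 to 3396 of the transcript of RDN25-1, the 25S rRNA gene on chromosome XII, which gave 396 of the 3396 nucleotides of the 25S rRNA and 396 of the 8112 nucleotides of the 11 RNAs measured. Members were chosen by position alone, and all 12 libraries contributed. Of the 37 methylation sites listed for the 25S rRNA, 0 lay in domain VI; the last listed site is nucleotide 2959.

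The domains of the 25S rRNA are numbered from the 5′ to the 3′ end and fold together in steps while the 60S subunit is assembled in the nucleolus. Domain VI carries the sarcin-ricin loop, a conserved hairpin on which translational GTPases such as the elongation factors act and in which the toxins ricin and sarcin attack the ribosome. RiboMeth-seq cuts RNA by alkaline hydrolysis and counts the ends of the fragments at each nucleotide, and a ribose methylated at its 2′ hydroxyl resists the cut and leaves a gap in the ends. In a stretch without known methylation, the ends therefore report how much of the RNA was present and how evenly it was cut and recovered.

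To follow domain VI in cells with and without the RNA helicase Dbp7, total RNA of exponentially growing yeast of the BY4741 background was analysed in 4 groups of 3 libraries, described as biological triplicates. WT + EV was the wild-type strain with an empty low-copy vector, and Δdbp7 + EV was the strain of the deletion collection that lacks DBP7, with the same vector. Δdbp7 + Dbp7WT and Δdbp7 + Dbp7DQGD were the deletion strain with DBP7 on the pRS415 plasmid under its own promoter and terminator, either wild-type or with a glutamate-to-glutamine exchange in its DEGD motif that leaves the protein catalytically inactive. The empty vector was pRS415 without DBP7, so all libraries carried a plasmid, and "plasmid" alone below means a plasmid with DBP7. WT + EV and Δdbp7 + Dbp7WT are called the groups with active Dbp7, and Δdbp7 + EV and Δdbp7 + Dbp7DQGD the groups without it. The sources used here do not say whether the transformants of a group came from 1 clone.

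Libraries held 5580519 to 23549872 read ends, and 315720 to 1727059 of these lay in domain VI. The median nucleotide of domain VI had 4209, 3463 and 1244.5 ends in WT + EV replicates 1 to 3, and between 720.5 and 1426.5 in each library without active Dbp7. The least covered nucleotide still had 45 ends, so single nucleotides could be followed in every library. The 95% Wilson interval of the share of 25S ends in domain VI was at most 0.0383 percentage points to either side, which covers counting error only.

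Of the stretches shown here, the sarcin-ricin loop marks the domain, with its conserved purine-rich heptamer in capitals. The 4 stretches below it are the longest runs of nucleotides, in capitals, with an unadjusted p under 0.05 between libraries with a Dbp7 plasmid and libraries with the empty vector, a comparison described further down. All are 25S rRNA, 5′ to 3′, as the deposited nucleotide columns spell them.
Sarcin-ricin loop, nucleotides 3014 to 3041: ugaacuuaguACGAGAGgaacaguucau
Run 3002 to 3010, higher with a Dbp7 plasmid: cCGCAAUAGUaauug
Run 3030 to 3037, higher with a Dbp7 plasmid: cgagaGGAACAGUucauu
Run 3077 to 3091, lower with a Dbp7 plasmid: caggcAUUGCCGCGAAGCUAccauc
Run 3104 to 3116, lower with a Dbp7 plasmid: cuggaUUAUGGCUGAACGccucu

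The heptamer occurred 1 time in the 25S rRNA, at nucleotides 3024 to 3030, and A3027 within it is the adenine that ricin removes. The label of the region therefore matched its best known landmark. Domain VI was richer in U than the 25S rRNA before it (29.3% against 25.1%) and slightly poorer in A and G (24.2% against 26.8%, and 27.0% against 28.6%).

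The first question was whether domain VI kept its place among the 25S read ends when active Dbp7 was missing. No difference was detected. In WT + EV, 11.9%, 13.0% and 10.2% of the 25S ends lay in domain VI. The shares were 11.6%, 11.3% and 10.5% in Δdbp7 + EV. They were 11.8%, 11.2% and 11.1% in Δdbp7 + Dbp7WT and 11.4%, 11.4% and 11.7% in Δdbp7 + Dbp7DQGD. All 4 groups overlapped, and WT + EV alone spanned both the highest and the lowest library. An even spread over the 25S rRNA would give 11.7%.

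The mean share was 11.3% ± 0.402 (SD, n = 6) without active Dbp7 and 11.5% ± 0.945 (n = 6) with it. The difference was -0.223 percentage points (SE 0.419, two-sided exact permutation test p = 0.63 over 924 splits), with a 95% interval from inverting the same test of -1.16 to 0.71, and it was negative in 3 of 6 same-numbered pairs. For Δdbp7 + EV against WT + EV the difference was -0.568 (SE 0.871, exact p = 0.5), for Δdbp7 + Dbp7DQGD against Δdbp7 + Dbp7WT 0.123 (SE 0.246, exact p = 0.6), and for Δdbp7 + Dbp7WT against WT + EV -0.373 (SE 0.842, exact p = 0.7). Adjusted over the 4 comparisons, p was 0.7 in each. With 3 libraries against 3 the smallest possible p is 0.1. Leaving out WT + EV replicate 2, the library with the highest share, turned the sign of 3 of these differences, to 0.0734 in the comparison of 6 against 6, 0.0788 for Δdbp7 + EV and 0.274 for Δdbp7 + Dbp7WT against WT + EV.

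Against the 18S rRNA, the RNA of the small subunit, domain VI was clearly lower without active Dbp7. This measure was added after the values had been seen. Per 100 read ends of 18S rRNA, domain VI had 24.3, 26.3 and 22.0 ends in WT + EV and 25.5, 24.6 and 23.1 in Δdbp7 + Dbp7WT. It had 16.2, 17.8 and 14.7 in Δdbp7 + EV and 16.99, 16.3 and 15.8 in Δdbp7 + Dbp7DQGD. All 6 libraries without active Dbp7 lay below all 6 with it, and the empty-vector and plasmid groups on each side overlapped.

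**Figure D1:**
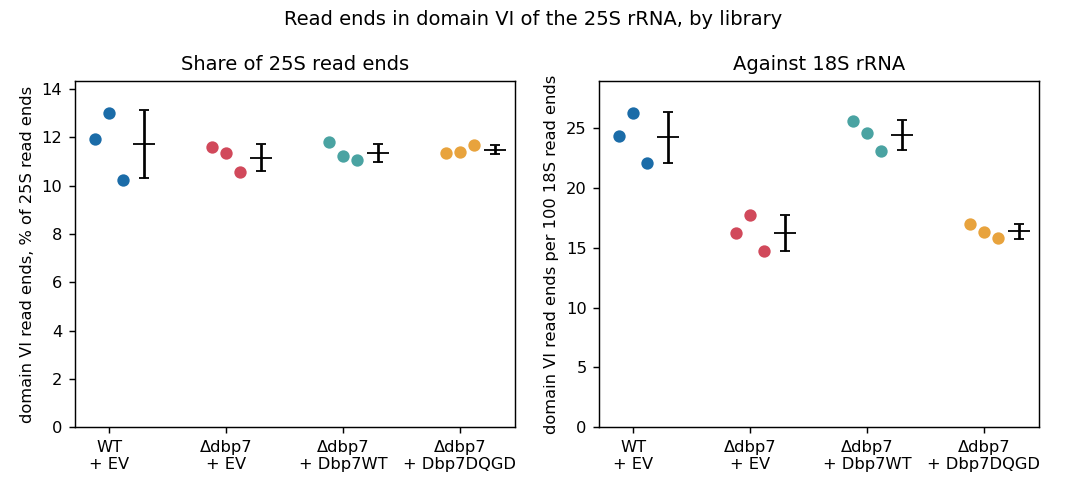
Read ends in domain VI in each of the 12 libraries, as a percentage of 25S read ends (left panel) and per 100 18S read ends (right panel); points are libraries, and the bar beside each group is the mean and SD of 3. The shares on the left overlap between all groups, from 10.2% to 13.0%, while on the right the 6 libraries without active Dbp7 lie between 14.7 and 17.8 and the 6 with it between 22.0 and 26.3.

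The means were 16.3 ± 1.05 (SD, n = 6) without and 24.3 ± 1.56 (n = 6) with active Dbp7. The difference was -8.01 ends per 100 18S ends (SE 0.766, 95% interval -9.77 to -6.26), or 1.49 times as many with active Dbp7. The two-sided exact permutation test gave p = 0.00216, the smallest it can give, and 0.00866 after adjustment over the 4 comparisons. The direction held in 6 of 6 same-numbered pairs, as it must where the 2 sets do not overlap. The size was nearly equal for the deletion (-7.99, SE 1.51, exact p = 0.1) and for the inactive protein (-8.03, SE 0.794, exact p = 0.1), both 0.133 after adjustment, and the plasmid-borne wild-type protein differed from WT + EV by 0.2 (SE 1.42, exact p = 0.9).

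The rest of the 25S rRNA differed by a similar ratio. The 25S rRNA before domain VI had 187 ± 7.81 ends per 100 18S ends with active Dbp7 and 128 ± 7.11 without. That was 1.46 times as many with active Dbp7, beside 1.49 times for domain VI. When the 25S rRNA was tiled towards the 5′ end in stretches of the length of domain VI, these ratios ran from 1.44 in nucleotides 1417 to 1812 to 1.49 in nucleotides 2605 to 3000, and the remaining 228 nucleotides at the 5′ end gave 1.42. In each of the 9 stretches all 6 libraries without active Dbp7 lay below all 6 with it. A ratio within a library cannot tell fewer 25S molecules from more 18S molecules.

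The share of domain VI was among the more variable ones. Its highest library exceeded its lowest 1.27 times, against 1.09 to 1.18 times in the other 7 stretches of equal length and 1.41 times in the 228 nucleotides at the 5′ end. Domain VI took a median of 11.4% of the 25S ends, and the stretches of equal length before it between 10.6% and 13.2%.

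Within domain VI the ends were spread unevenly. The lowest full windows were the same in all groups, while the fullest window was not. In windows of 20 nucleotides, the mean share of 25S ends over the 12 libraries was highest at nucleotides 3321 to 3340 (0.806%), 3181 to 3200 (0.786%) and 3001 to 3020 (0.766%). It was lowest among full windows at 3061 to 3080 (0.329%) and 3261 to 3280 (0.353%). The fullest window held between 0.586% and 1.00% in single libraries and the emptiest full window between 0.229% and 0.486%, so these did not overlap.

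**Figure D2:**
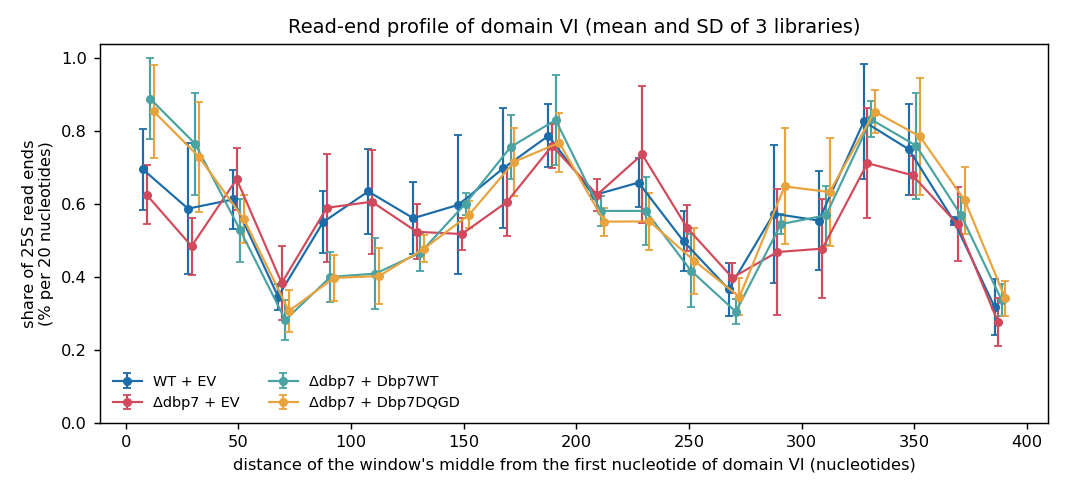
Share of 25S read ends along domain VI in 20-nucleotide windows (the last window of 16 nucleotides is scaled to 20), against distance from the first nucleotide of the domain; points are group means and bars the SD of 3 libraries. All groups share the valleys near distances 70 and 270, and between distances 0 and 120 the lines pair by plasmid, with Δdbp7 + Dbp7WT beside Δdbp7 + Dbp7DQGD and WT + EV beside Δdbp7 + EV.

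Among single nucleotides, C3324, U3179, U3196, A3342 and G3325 had the most ends, with 0.0559% to 0.0593% of the 25S ends each on average. C3324 ranged from 1154 ends (0.0294% of the 25S ends) in Δdbp7 + EV replicate 2 to 10372 (0.0969%) in WT + EV replicate 2. U3396, A3070, G3065, G3069 and G3264 had the fewest, from 0.00246% to 0.00967%. U3396 is the last nucleotide of the 25S rRNA, with 45 to 363 ends and a median of 121.

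The 3′ edge of the molecule was read by one kind of end. The last 5′ end in any library lay at nucleotide 3381, and the 15 nucleotides after it had 3′ ends alone. Over the whole of domain VI 46.9% to 48.7% of the ends were 5′ ends, but over nucleotides 3357 to 3396 only 15.6% to 21.4%. Those 40 nucleotides held 0.737% to 1.16% of the 25S ends.

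The sarcin-ricin loop was read well in every library. Within it, the 14 nucleotides 3021 to 3034 around the heptamer took 0.498% ± 0.166 (SD, n = 3) of the 25S ends in WT + EV and 0.392% ± 0.0696 in Δdbp7 + EV. With the Dbp7 plasmids they took 0.639% ± 0.124 (Dbp7WT) and 0.599% ± 0.138 (Dbp7DQGD). A3027 had 5907, 6177 and 1453 ends in WT + EV, 1207, 921 and 1333 in Δdbp7 + EV, 4316, 4391 and 4612 in Δdbp7 + Dbp7WT, and 1038, 2098 and 1779 in Δdbp7 + Dbp7DQGD. These counts are not scaled to library depth. As a share of 25S ends A3027 took 0.0408%, 0.0577% and 0.0281% in WT + EV and 0.0349%, 0.0235% and 0.0367% in Δdbp7 + EV. It took 0.043%, 0.0413% and 0.0568% in Δdbp7 + Dbp7WT and 0.0328%, 0.0398% and 0.0659% in Δdbp7 + Dbp7DQGD. Its RMS score was 0 in 10 libraries, and 0.106 and 0.192 in the first replicates of the plasmid groups, so the ricin adenine had at least as many ends as the weighted mean of its neighbours in those 10.

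Whether the ends were moved around within domain VI when active Dbp7 was missing was tested at every nucleotide of the 18S and 25S rRNAs together. Neither at single nucleotides, nor relative to the neighbours, nor in windows did any part of domain VI pass. In the test of each nucleotide's share of its rRNA (edgeR's quasi-likelihood test with Benjamini-Hochberg adjustment over 5187 nucleotides), 0 of 396 domain VI nucleotides were called for the groups without against the groups with active Dbp7, beside 0% of all nucleotides tested. DESeq2 also called 0, and 0 of 396 had an unadjusted edgeR p under 0.05, beside 64 of all 5187 (1.23%). With same-numbered libraries paired, edgeR again called 0 of 396, but 21 had an unadjusted p under 0.05, beside 582 of 5187. With TMM factors over all features in place of each rRNA's own sum, edgeR also called 0 of 396, but 47 had an unadjusted p under 0.05, beside 1193 of 5187, and the median difference of domain VI was -0.22, beside -0.10 over all nucleotides. On the rRNA scale, the fitted log2 differences ran from -0.34 to 0.45 with a median of -0.03 (-0.01 over all nucleotides) and a median SE of 0.18.

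The 5 domain VI nucleotides with the smallest p were A3040, A3279, U3066, U3037 and U3064, all higher without active Dbp7, by 0.25 to 0.45 on the log2 scale (edgeR adjusted p = 0.999 for each). A3040, at the 3′ end of the stretch printed above as the sarcin-ricin loop, shows how far such values overlapped. It took 0.0127%, 0.0065% and 0.00946% of the 25S ends in WT + EV and 0.0131%, 0.0156% and 0.00957% in Δdbp7 + EV. It took 0.00637%, 0.0121% and 0.00896% in Δdbp7 + Dbp7WT and 0.0102%, 0.0148% and 0.0124% in Δdbp7 + Dbp7DQGD. The edgeR fit gave a log2 difference of 0.43 (SE 0.22).

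The 2 parts of this comparison gave the same count. For Δdbp7 + EV against WT + EV, 0 of 396 nucleotides were called by edgeR or DESeq2 beside 0% of all features tested, 0 had an unadjusted p under 0.05, and the smallest p belonged to C3298 (-0.53, SE 0.30), C3025 (-0.55, SE 0.31), C3324 (-0.56, SE 0.32), G3325 (-0.49, SE 0.28) and G3326 (-0.43, SE 0.26), with edgeR adjusted p = 0.999. For Δdbp7 + Dbp7DQGD against Δdbp7 + Dbp7WT, 0 of 396 were called by either tool beside 0% of all features tested and 0 had an unadjusted p under 0.05. A3040 (0.45, SE 0.31), C3278 (0.36, SE 0.26), A3295 (0.62, SE 0.45), G3252 (0.25, SE 0.18) and A3296 (0.55, SE 0.43) had the smallest p there, with edgeR adjusted p of 1.0 after rounding. The difference between these 2 effects was itself tested as an interaction in edgeR and passed at 0 of 396 nucleotides, with 0 under an unadjusted p of 0.05.

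Read against the flanking nucleotides, which is what the RMS score does, the result was the same. Of 390 domain VI nucleotides with enough flanking ends, edgeR and DESeq2 called 0 without against with active Dbp7, beside 0% of 5172 tested in edgeR and 0.116% in DESeq2, and 2 had an unadjusted p under 0.05, beside 85 of 5172 (1.64%). These were G3101 (0.22, SE 0.09) and U3037 (0.49, SE 0.22), and A3040 (0.33, SE 0.16), U3056 (-0.16, SE 0.08) and U3121 (-0.20, SE 0.10) came next, all with edgeR adjusted p of 1.0 after rounding. With same-numbered libraries paired, edgeR called 0 of 390, beside 0.271% of 5172. In that fit 40 of 390 had an unadjusted p under 0.05, beside 654 of 5172. U3037 lies beside A3040, and its ends over the flanking mean were 0.61, 0.366 and 0.477 in WT + EV and 0.72, 0.95 and 0.533 in Δdbp7 + EV. They were 0.524, 0.448 and 0.88 in Δdbp7 + Dbp7WT and 0.728, 0.565 and 1.13 in Δdbp7 + Dbp7DQGD, higher without active Dbp7 in 6 of 6 same-numbered pairs but overlapping between the groups.

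For Δdbp7 + EV against WT + EV edgeR called 0 of 390, beside 0% of 5172, and DESeq2 0 of 390, beside 0.0193%; 3 had an unadjusted p under 0.05, beside 67 of 5172 (1.30%), with C3298 (-0.30, SE 0.13), G3101 (0.30, SE 0.13), U3195 (-0.22, SE 0.10), A3279 (0.59, SE 0.28) and U3037 (0.60, SE 0.31) first. For Δdbp7 + Dbp7DQGD against Δdbp7 + Dbp7WT it called 0 of 390, as did DESeq2, both beside 0% of 5172, and 0 had an unadjusted p under 0.05, beside 21 of 5172, with G3290 (-0.31, SE 0.17), U3057 (-0.21, SE 0.12), A3040 (0.38, SE 0.22), U3056 (-0.18, SE 0.11) and U3121 (-0.22, SE 0.15) first. In the 20 windows of domain VI, among 260 in all, edgeR and DESeq2 called 0 in each of these 3 comparisons, beside 0% of all features tested and with 0 under an unadjusted p of 0.05. With TMM factors over all features as the scale, edgeR still called 0 of the 20, beside 29.6% of the 260 windows without against with active Dbp7, 4.62% for Δdbp7 + EV and 16.9% for Δdbp7 + Dbp7DQGD. Under that scale 6, 0 and 0 domain VI windows had an unadjusted p under 0.05. On the rRNA scale the window differences without against with active Dbp7 ran from -0.17 to 0.15 on the log2 scale, with a median SE of 0.12.

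The libraries of domain VI resembled each other by replicate number more than by group. The log2 share profile of the 396 nucleotides correlated with r = 0.513 to 0.973 in the 6 same-numbered pairs that differ only in active Dbp7, and with r = 0.537 to 0.828 in the 12 pairs of libraries within a group. For 10 of 12 libraries the most similar library was the same-numbered one of the partner group, and for 0 of 12 it was one of its own group. The exceptions were WT + EV replicate 2, most like Δdbp7 + Dbp7WT replicate 1, and Δdbp7 + EV replicate 2, most like WT + EV replicate 3. Δdbp7 + EV replicate 2 stood apart from the rest, with r from 0.239 to 0.752. These correlations are across nucleotides, which are not independent replicates.

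**Figure D3:**
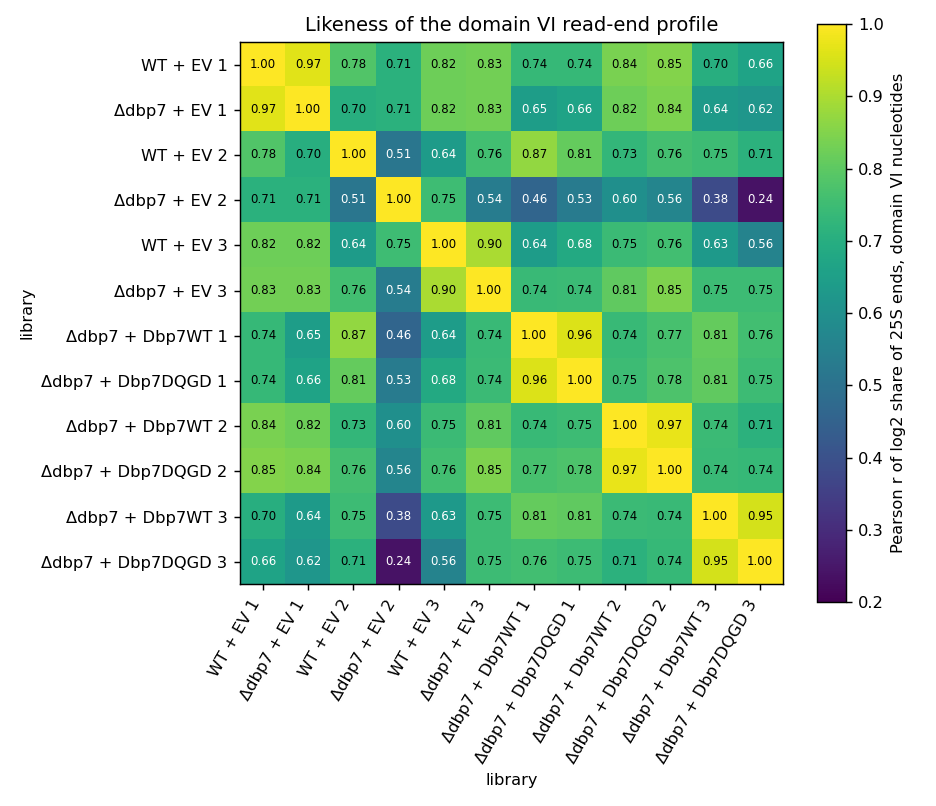
Pearson's r of the log2 share of 25S read ends over the 396 domain VI nucleotides between each pair of the 12 libraries, ordered so that same-numbered libraries of partner groups lie side by side. The pairs along the diagonal reach 0.948 to 0.973 in 4 of 6 cases, while Δdbp7 + EV replicate 2 has the lowest values, down to 0.239.

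The largest differences measured within domain VI lay between libraries with a Dbp7 plasmid and libraries with the empty vector, though edgeR called none of them. This comparison was added after the values had been seen. It set both groups with a Dbp7 plasmid against both groups with the empty vector, so each side holds 1 group with and 1 group without active Dbp7, and it also sets deletion strains alone against a mixture with the wild-type strain. Of 396 domain VI nucleotides, 96 (24.2%) had an unadjusted p under 0.05, 31 higher and 65 lower with a Dbp7 plasmid, beside 14.1% of all 5187. None of these passed edgeR's adjustment (0 of 396, beside 0% of all features tested), whereas DESeq2 called 28 of 396, 10 higher and 18 lower, beside 1.91% of all features tested. With the replicate number as a block edgeR called 6, beside 0.289% of all features tested, and with 5′ ends only 7, beside 0.371%.

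The 96 nucleotides lay in 36 stretches, many of them single nucleotides, and the 4 longest runs are described here. Nucleotides 3002 to 3010, before the sarcin-ricin loop, were higher with a Dbp7 plasmid by 0.41 to 0.85 on the log2 scale. Nucleotides 3030 to 3037, within the printed loop from the last nucleotide of its heptamer on, were higher by 0.54 to 1.09. Nucleotides 3077 to 3091 and 3104 to 3116 were lower, by values from -0.96 to -0.43 and from -0.88 to -0.40. The sequences of these 4 runs are those given above. Neighbouring nucleotides share fragments, so the nucleotides of a run are not independent.

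**Figure D4:**
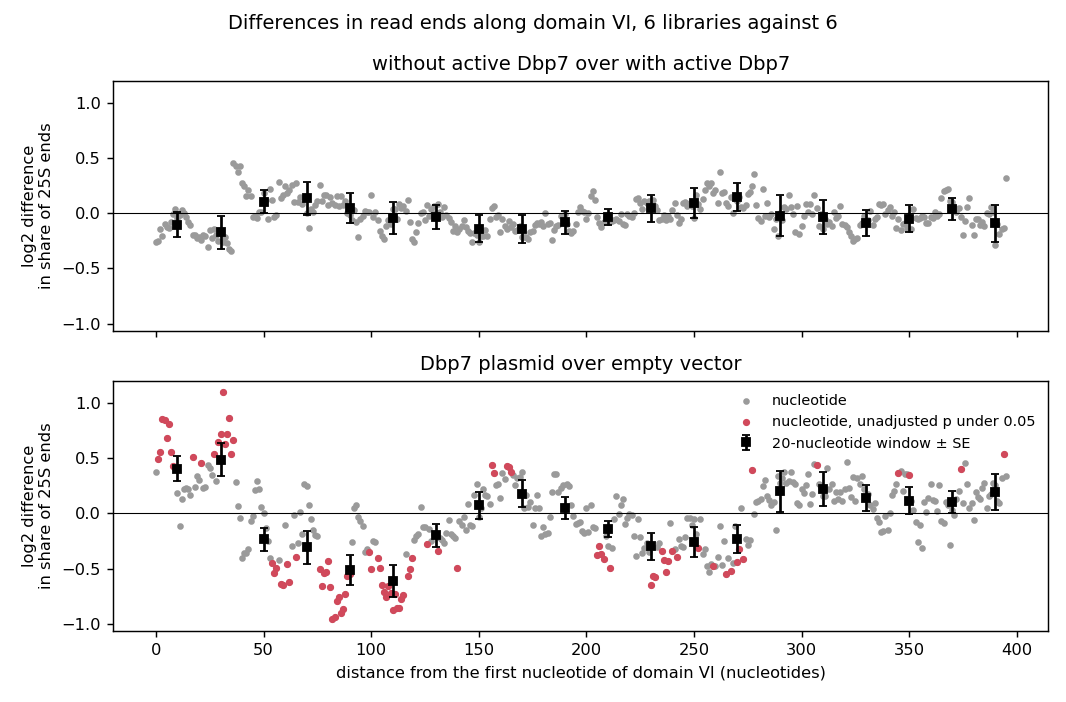
Log2 difference in share of 25S read ends along domain VI, without over with active Dbp7 (top) and Dbp7 plasmid over empty vector (bottom), 6 libraries against 6; dots are nucleotides, red where the unadjusted edgeR p is under 0.05, and squares are 20-nucleotide windows with their SE. In the top panel 0 nucleotides are red and all lie between -0.34 and 0.45; in the bottom panel 96 are red, with runs above 0 before distance 40 and below 0 between distances 50 and 120.

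U3007, in the first of these runs, took 0.034%, 0.0407% and 0.0283% of the 25S ends in WT + EV and 0.0323%, 0.0294% and 0.0299% in Δdbp7 + EV. It took 0.0539%, 0.0529% and 0.069% in Δdbp7 + Dbp7WT and 0.0512%, 0.0475% and 0.0655% in Δdbp7 + Dbp7DQGD. All 6 plasmid libraries lay above all 6 empty-vector libraries (log2 difference 0.81, SE 0.14, edgeR adjusted p = 0.0875, DESeq2 adjusted p = 0.000123).

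G3083 went the other way. It took 0.0386%, 0.0219% and 0.0255% in WT + EV and 0.0374%, 0.038% and 0.0202% in Δdbp7 + EV, against 0.0185%, 0.0161% and 0.0113% in Δdbp7 + Dbp7WT and 0.0187%, 0.0168% and 0.0116% in Δdbp7 + Dbp7DQGD. Again the 2 sets of 6 did not overlap (-0.96, SE 0.21, edgeR adjusted p = 0.0977). A3087 (-0.90, SE 0.19) and U3111 (-0.88, SE 0.18) had an edgeR adjusted p of 0.0875 each and were apart in the same way. A3032, just after the sarcin-ricin heptamer, had the largest difference (1.09, SE 0.23, edgeR adjusted p = 0.0875), but the 2 kinds of ends disagreed: the difference was 1.47 in 3′ ends alone and -0.21 in 5′ ends alone.

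In all, 13 of 396 domain VI nucleotides were apart in every library by plasmid, 3 higher and 10 lower, beside 1.95% of 5187 of all features tested, and 0 of 396 were apart by active Dbp7, beside 0.154% of all features tested. Of the 20 windows, 0 were called by edgeR and 6 had an unadjusted p under 0.05, beside 28 of 260 (10.8%). Nucleotides 3101 to 3120 were lower with a plasmid by -0.61 (SE 0.15, edgeR adjusted p = 0.116) and 3081 to 3100 by -0.52 (SE 0.14, edgeR adjusted p = 0.116). DESeq2 called 4 windows, beside 3.08% of all windows, and edgeR with the replicate block 2, beside 1.54%. Without Δdbp7 + EV replicate 3 edgeR called 2 windows, and without WT + EV replicate 3 or Δdbp7 + Dbp7WT replicate 1 it called 1. Between the empty-vector groups, which differ in strain, 0 of 396 nucleotides had an unadjusted edgeR p under 0.05, beside 0.675% of all 5187. That comparison has 3 libraries on each side and a median SE of 0.26, and a p above the threshold does not show equality. Whether strain, plasmid or anything else that differs between the 2 sets of libraries underlies the differences was not tested.

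The remaining comparison, Δdbp7 + Dbp7WT against WT + EV, crosses the same divide with 3 libraries on each side. EdgeR and DESeq2 called 0 of 396 nucleotides, beside 0% of all features tested, and 39 had an unadjusted p under 0.05 (9.85%, beside 4.03% of all 5187), 10 higher and 29 lower, the longest run being nucleotides 3105 to 3116. The smallest p belonged to U3007 (0.77, SE 0.20), U3111 (-0.89, SE 0.26), A3087 (-0.85, SE 0.26), G3108 (-0.85, SE 0.26) and A3032 (1.02, SE 0.33), each with an edgeR adjusted p of 0.997. Of these 5, U3007, U3111, A3087 and A3032 are also among the 5 first nucleotides of the plasmid comparison, with which it shares all 6 libraries.

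The RMS score of domain VI gives the background of the method where no methylation is listed. The score is 1 minus the ends at a nucleotide over the weighted mean of its 6 neighbours on either side, set to 0 where negative. Its mean over domain VI was 0.119 ± 0.00791 (SD, n = 3) for WT + EV and 0.116 ± 0.00701 for Δdbp7 + EV, and 0.121 ± 0.0054 and 0.115 ± 0.00851 for the strains with Dbp7WT and Dbp7DQGD. The 2963 unlisted nucleotides of the 25S rRNA before domain VI gave 0.114 ± 0.00886, 0.116 ± 0.00873, 0.117 ± 0.00224 and 0.113 ± 0.00666. The libraries of all 4 groups overlapped, between 0.105 and 0.126.

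The score was 0 in all 12 libraries at 76 of 396 domain VI nucleotides (19.2%, beside 20.8% of the unlisted nucleotides before it), 6 of them the last 6, which have no full flank. At 33 (8.33%) it reached 0.5 in at least 1 library, beside 7.96% of the unlisted nucleotides before domain VI. At 5 nucleotides the mean over the 12 libraries was at least 0.5 (1.26%, beside 1.35%), and at 0 was every library at least 0.5, beside 8 of 2963. For comparison, the lowest mean of a listed 25S site was 0.589, at U2347.

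A3307 had the highest mean score, 0.611. It was 0.67, 0.703 and 0.616 in WT + EV, 0.661, 0.763 and 0.449 in Δdbp7 + EV, 0.524, 0.63 and 0.636 in Δdbp7 + Dbp7WT and 0.508, 0.571 and 0.603 in Δdbp7 + Dbp7DQGD. A3141 followed with 0.594. It was 0.521, 0.517 and 0.499 in WT + EV, 0.554, 0.537 and 0.625 in Δdbp7 + EV, 0.581, 0.748 and 0.621 in Δdbp7 + Dbp7WT and 0.644, 0.66 and 0.621 in Δdbp7 + Dbp7DQGD. Both reached 0.5 in 11 of 12 libraries. At A3307 the 3 WT + EV libraries lay above those with Dbp7DQGD and the other pairs of groups overlapped, while at A3141 all 3 WT + EV libraries lay below the other 9. Both nucleotides were picked for their high score. How often such separations occur at other nucleotides was not counted, so no group difference is read from them.

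**Figure D5:**
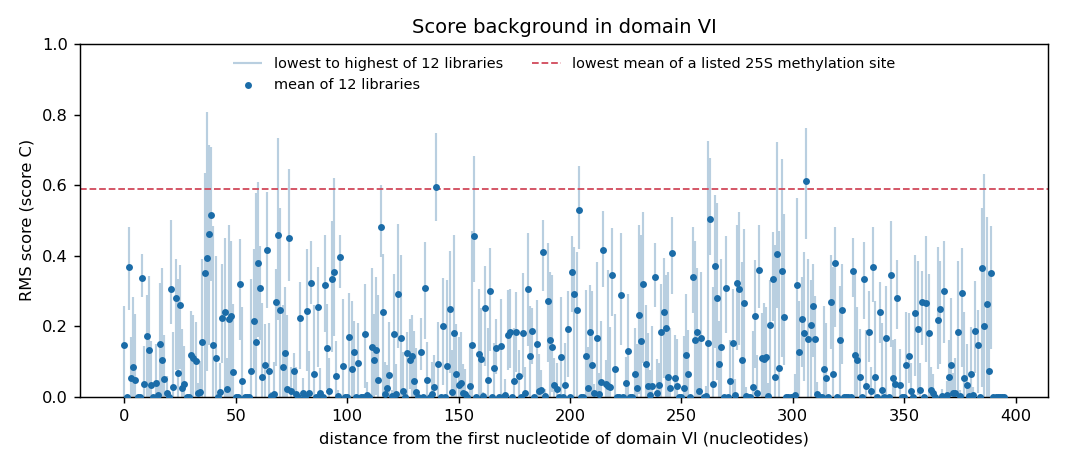
RMS score along domain VI against distance from its first nucleotide; dots are means of 12 libraries, pale lines run from the lowest to the highest library, and the dashed line marks 0.589, the lowest mean of a listed 25S methylation site. The means of A3307 (0.611) and A3141 (0.594) lie above that line and all others below it.

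The remaining nucleotides of the 10 highest were G3205 (0.529), A3040 (0.516), G3264 (0.503), G3116 (0.481), C3039 (0.461), A3070 (0.457), G3158 (0.457) and G3075 (0.451). Their surroundings are given below with the nucleotide and the one after it in capitals, because the bond between these 2 is the one whose cut is counted. Of the 10, 6 were followed by C, 5 of them as GC, whereas 19.2% of domain VI nucleotides are followed by C.
A3307: uuguauACgacuu
A3141: ugcuagAAcgcgg
G3205: ggcgucGCugaac
A3040: caguucAUucgga
G3264: uugcugGCgaauu
G3116: cugaacGCcucua
C3039: acaguuCAuucgg
A3070: ugucugAUcaggc
G3158: uucuuuGCuccac
G3075: gaucagGCauugc

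The dependence on the nucleotide and its 3′ neighbour ran through the whole domain. Over the 31 GC steps of domain VI the mean score was 0.321, with libraries from 0.281 to 0.36, and the ends were 67.2% of the domain's mean. GU (0.255, 25 steps) and AC (0.247, 17 steps) came next. AG (0.0161, 24 steps) and UG (0.019, 37 steps) were lowest, with libraries up to 0.0482 and 0.0507, so their ranges lay apart from that of GC. By base, G scored 0.21 and A 0.142, and C and U scored 0.0575 and 0.0525.

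Before domain VI, GC (0.326, 155 steps), GU (0.248) and AC (0.242) were again the 3 highest steps, while the lowest were CG (0.0164) and CA (0.0274), followed by AG (0.0283) and UG (0.0318). In the 4 groups, GC steps of domain VI scored 0.325 ± 0.0288 (mean ± SD, n = 3) for WT + EV, 0.297 ± 0.0166 for Δdbp7 + EV, 0.333 ± 0.0252 with Dbp7WT and 0.329 ± 0.025 with Dbp7DQGD.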

How the data were processed

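The authors counted 5′ and 3′ read ends at each nucleotide of 11 RNAs, and these deposited counts were used as given. The deposited score C, a fraction from 0 to 1, was recomputed from the counts with a largest difference of 5e-10. The submitters' processing notes name cutadapt 2.0 and Bowtie2 2.3.4.1; the genome build is not given in the sources used here. A further 24 columns of per-sample values were not used. Libraries held 5580519 to 23549872 ends.

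Shares and ratios were compared by exact permutation tests (Python 3.11.15, scipy 1.17.1). Nucleotides of 18S and 25S rRNA with a mean of at least 50 ends, and windows of 20 nucleotides, were tested with edgeR 4.0.16 in R 4.3.3, using Benjamini-Hochberg adjusted p under 0.05, with DESeq2 1.42.0 and TMM factors as alternatives. Each nucleotide was scaled to the sum of its own rRNA, so a shift of a whole rRNA is removed, which TMM factors over all features do not do. The edgeR step was tested on simulated data, for the comparison without against with active Dbp7 only. The DESeq2 step was not tested in this way. The named nucleotides are the 5 with the smallest p in each comparison, those with the most and fewest ends, and the 10 highest mean scores. Members, lists and tests were chosen with earlier results of these data known. The ratio to 18S rRNA and the comparison by plasmid were added after the values had been seen. P-values set a difference against the spread between these libraries.

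The labels number the replicates of each group. Deviations from the group means correlated between same-numbered libraries of partner groups with r from 0.111 to 0.893 over 5196 nucleotides. This was above 0.1 in all 6 pairs, so the numbers were taken to pair the libraries in alternative tests. The main tests did not use the pairing. Within domain VI r ran from -0.187 to 0.902.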

Additional observations from a re-analysis of the deposited data

Results flagged for a closer look

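Gaps between the highest or lowest library and its neighbour were tested in 48 groups of 6 libraries, of which chance marks about 1 in 20, and 2 stood out. Among the 6 libraries without active Dbp7, Δdbp7 + EV replicate 3 had the lowest share of 25S ends in domain VI, 10.5%, while the other 5 lay between 11.3% and 11.7%. In the window of nucleotides 3341 to 3360, Δdbp7 + Dbp7DQGD replicate 1 had 0.969% of the 25S ends, above the other 5 libraries without active Dbp7.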

How the results depend on the processing

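With the ends of 18S, 25S and the short rRNA paired with 25S together as denominator, the share of domain VI differed by -1.60 percentage points without against with active Dbp7 (exact permutation p = 0.00216), by -1.35 for Δdbp7 + Dbp7DQGD against Δdbp7 + Dbp7WT and by 0.0186 for Δdbp7 + Dbp7WT against WT + EV, the last 2 with the sign turned. Leaving out 1 library at a time, the share of 25S ends differed by -0.485 to 0.0734 (6 against 6), -1.32 to 0.0788 (Δdbp7 + EV), -0.026 to 0.338 (Δdbp7 + Dbp7DQGD) and -1.12 to 0.274 (Δdbp7 + Dbp7WT against WT + EV). The ratio to 18S ends gave -8.47 to -7.62, -9.07 to -6.95, -8.69 to -7.47 and -0.887 to 1.23 in the same order. The last comparison also turned with 5′ ends only (-0.149) and with a start 40 nucleotides later (-0.706).

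With the replicate number as a block, edgeR called 0 domain VI nucleotides or windows by active Dbp7, and 6 nucleotides and 2 windows by plasmid. In the fit of 6 pairs, 16 of 396 nucleotides had an unadjusted p under 0.05 in share for Δdbp7 + EV, beside 369 of 5187. For Δdbp7 + Dbp7DQGD 4 did, beside 275. Against the flank these counts were 33 and 10 of 390, beside 519 and 278 of 5172. Of the 20 windows, 2 were under it without against with active Dbp7, beside 29 of 260. The paired exact permutation tests gave p = 0.656 for the share and 0.0312, the smallest 6 pairs can give, for the ratio. The latter was fixed by the 2 sets not overlapping. By plasmid, DESeq2 called 28 nucleotides and 4 windows, 5′ ends only 7 nucleotides, windows of 40 nucleotides 1, and leaving out 1 library 0 to 2 windows and 0 nucleotides. The mean score as a median over nucleotides was 0.0294 (WT + EV), 0.0441 (Δdbp7 + EV), 0.0313 (with Dbp7WT) and 0.0205 (with Dbp7DQGD), and with negative values kept 0.00782, 0.00628, 0.00607 and 0.00527. C3298 turned in Δdbp7 + EV against WT + EV with 3′ ends only (0.24 in share, 0.0169 against the flank), and A3032 with 5′ ends only (-0.38 for Δdbp7 + Dbp7WT against WT + EV, -0.21 by plasmid). With TMM factors over all features, edgeR called 0 domain VI nucleotides or windows, while 77, 12 and 44 of all 260 windows were called without against with active Dbp7, for Δdbp7 + EV and for Δdbp7 + Dbp7DQGD. The causes were not tested. In all, 1035 values kept their direction and side of the threshold, 14 reversed, 19 passed the threshold only in the alternative and 17 moved. Counts of 0 calls that stayed 0 are among the 1035. Nucleotides with few ends, such as the last one, limit the precision.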
